A study of Meleagris gallopavo with 24 samples.

Results

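The genes described here are the antioxidant, selenoprotein and iron genes of the turkey (Meleagris gallopavo), measured by RNA-seq in heart and liver. They were taken from the deposited gene tables by a rule on gene names, chosen with earlier results of these data known: glutathione peroxidases, peroxiredoxins, thioredoxins, glutaredoxins, superoxide dismutases, catalase, haem oxygenases, enzymes of glutathione synthesis, selenoproteins, the NRF2 system, methionine sulfoxide reductases, ferritin and transferrin receptor genes, NADPH oxidases and apoptosis-inducing factors. The rule found 34 of the 11587 genes in the table. A further 33 genes of the same families carry no name in the tables and were named by their position in RefSeq. They are called companions below and are kept apart from the members. The name of the set reaches further than its members: no member is a peroxiredoxin or an iron storage or uptake gene, and the only member of haem and iron turnover is HMOX1. Another 13 family symbols known to RefSeq, among them KEAP1, FTH1, TFRC and TXNIP, were not analysed here.

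Female turkeys were kept on litter, 4 to a pen, and received feed free of salinomycin (Sal) up to week 11. Sal is an ionophore that carries monovalent cations across membranes and is fed to poultry against coccidia. The Sal-exposed birds then received 21 mg Sal per kg feed from week 12, estimated at 0.9 mg per kg body weight a day, the control birds stayed on Sal-free feed, and all birds were sampled in week 13. From both heart and liver came 6 libraries of Sal-exposed and 6 of control birds, and liver control 3, which the study left out for few reads, was left out here too, so that 23 libraries were compared. The labels do not give the pen of a bird or say whether the heart and liver libraries of the same number came from 1 bird. By the paper's account of sampling, 6 birds of each group were killed, and both organs were taken from them. With 6 libraries per tissue and group, the heart and liver libraries of a group then came from the same birds. Which heart library goes with which liver library is not given. The fits over both tissues had no term for the bird and treated these libraries as independent.

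In cells, hydrogen peroxide is broken down by catalase. Both it and lipid peroxides are reduced by glutathione peroxidases, which draw on glutathione, and by peroxiredoxins, which draw on thioredoxin. Several of these enzymes are selenoproteins and hold selenium as selenocysteine, which the ribosome inserts at a stop codon with the help of a special RNA element and its binding proteins. NRF2, encoded by NFE2L2, is the transcription factor that raises the genes of glutathione synthesis, thioredoxin and quinone reduction under oxidative stress. The liver is a main site of glutathione synthesis and the main source of the plasma selenoprotein, and the heart, rich in mitochondria, depends on the mitochondrial enzymes SOD2, TXN2 and TXNRD2.

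Levels are given as CPM, the counts of a gene per 1000000 counts of its library after TMM scaling of the library totals, and a difference as a log2 fold change with its standard error (SE). A difference passed at an adjusted p of at most 0.05 in edgeR's quasi-likelihood test, adjusted over all genes tested. The libraries held 15706646 to 35979378 counts, of which mitochondrial genes took 48.3 to 86.9% in heart and 16.7 to 46.2% in liver. The labels of the tissues were borne out by their markers: 8 hepatocyte genes summed to 174000 to 274900 CPM in liver and 18.0 to 68.7 in heart, and 5 cardiomyocyte genes to 7327 to 52640 CPM in heart and 0.048 to 21.6 in liver. Some libraries stood apart. Heart Sal 1 had the lowest mitochondrial share and the highest cardiomyocyte sum, and was the highest of the 12 heart libraries for 19 of the 32 members tested. Liver controls 2 and 4 had a count in only 9563 and 9268 genes. Controls 1, 5 and 6 had a count in 10304, 11055 and 10611 genes, and Sal-exposed livers in 10918 to 11350. The paper's share of uniquely aligned reads was higher in every Sal-exposed liver than in any liver control. The part of these differences between the groups in the liver results was not tested. In liver controls 1 and 5, SI, the sucrase-isomaltase of the gut lining, stood at 927 and 106 CPM, and at most at 6.81 in the other livers. Library size alone, without TMM, moved the median of all genes downward in the Sal comparison of heart (-0.38 against 0.01) and upward in liver (0.16 against 0.03), so that the directions below are relative to TMM.

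The levels of the members in unexposed birds differed widely between the tissues. Of the 33 members tested, 20 passed between liver control and heart control (60.6%), 14 higher and 6 lower in liver. That is close to the 57.6% of all genes that passed (29.8% higher and 27.8% lower), and the median difference was 0.70 for the members against 0.01 for all genes. CPM ranges did not overlap between the tissues for 16 members, 11 above and 5 below, beside 40.5% of all genes (19.2% and 21.4%). For this comparison CPM was scaled over both tissues together, and the study homogenised liver and heart in different reagents, so that tissue and extraction cannot be told apart.

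**Figure D1:**
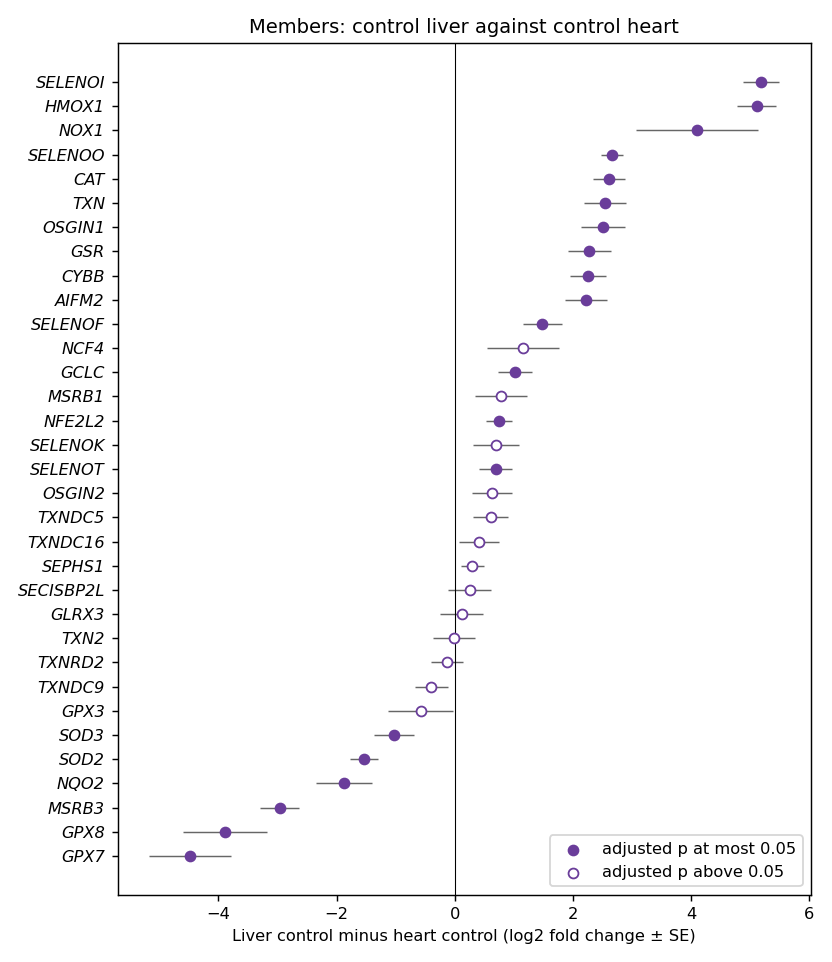
Difference in level between control liver and control heart for the 33 members tested, as log2 fold change ± SE on the x axis, with 1 member per line. Filled points passed an adjusted p of at most 0.05 and open points did not. SELENOI and HMOX1 lie more than 5 log2 units to the liver side and GPX7 more than 4 to the heart side.

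Among the selenoproteins, SELENOI, which makes phosphatidylethanolamine, and SELENOO, a mitochondrial enzyme that attaches AMP to proteins, were higher in liver. SELENOI (chromosome 2, 103836412 to 103846814 of Turkey_5.1) ranged from 1.68 to 3.10 CPM in heart controls, with a median of 2.93, and stood at 82.0, 128, 67.5, 81.1 and 155 CPM in liver controls 1, 2, 4, 5 and 6. Every liver library lay far above every heart library, and the difference was 5.19 ± 0.31 (edgeR adjusted p = 2.6e-13). SELENOO (chromosome 1, 19481430 to 19496443) was at 9.85 to 14.4 CPM in heart controls, with a median of 11.95, and at 53.7, 81.9, 78.6, 71.6 and 95.3 CPM in liver controls. Its difference was 2.66 ± 0.19 (edgeR adjusted p = 5.6e-12). SELENOF, a redox protein of the endoplasmic reticulum (1.48 ± 0.33), and SELENOT, a thioredoxin-like protein of the same compartment (0.70 ± 0.28), were higher in liver too, whereas SELENOK (0.70 ± 0.39) did not pass.

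HMOX1, the inducible haem oxygenase that breaks haem into biliverdin, carbon monoxide and iron, was at 4.50 to 8.93 CPM in heart controls, with a median of 5.87. It stood at 145, 227, 156, 233 and 333 CPM in liver controls 1, 2, 4, 5 and 6, without overlap, a difference of 5.11 ± 0.34 (edgeR adjusted p = 1.9e-12). CAT (chromosome 5, 17756800 to 17773747), the peroxisomal catalase, was at 73.5 to 111 CPM in heart, with a median of 87.9, and at 338, 540, 670, 555 and 660 CPM in liver. Its difference of 2.61 ± 0.28 (edgeR adjusted p = 1.1e-08) again separated all libraries. SOD2, the mitochondrial superoxide dismutase, went the other way, with 299 to 432 CPM in heart controls (median 336) and 104, 145, 119, 109 and 114 CPM in liver controls (-1.53 ± 0.23, edgeR adjusted p = 3.7e-06). The SOD2 model lies wholly within that of ACAT2, which averaged 274 CPM in liver and 3.77 in heart, and reads of the overlap cannot be told apart without the strand of counting. SOD3, the extracellular superoxide dismutase, was also lower in liver (-1.03 ± 0.34).

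TXN, the cytosolic thioredoxin, was at 3.45 to 11.2 CPM in heart controls, with a median of 4.46, and at 35.3, 22.6, 30.02, 35.2 and 39.5 CPM in liver controls (2.55 ± 0.35, edgeR adjusted p = 9.5e-07). Its mitochondrial counterpart TXN2 (-0.02 ± 0.36) and the mitochondrial thioredoxin reductase TXNRD2 (-0.13 ± 0.28) did not pass. OSGIN1, a target of NRF2 that restrains growth in mammals, was at 5.08 to 19.2 CPM in heart (median 9.09) and at 36.5, 69.4, 50.1, 19.4 and 115 CPM in liver (2.51 ± 0.37, edgeR adjusted p = 2.7e-06), where control 5 came near the highest heart library. Both members of glutathione metabolism were higher in liver: GSR, which recycles oxidised glutathione (2.28 ± 0.36), and GCLC, the catalytic subunit of the first enzyme of glutathione synthesis (1.02 ± 0.29). NFE2L2 itself (0.74 ± 0.22) and AIFM2, a ubiquinone reductase that guards against lipid peroxidation (2.22 ± 0.36), were higher as well. The GSR model lies wholly within a model without a name, which averaged 6.05 CPM in heart and 7.05 in liver. Of the NADPH oxidases, which make superoxide, CYBB, the phagocyte subunit, was at 0.759 to 1.76 CPM in heart controls (median 1.305) and at 12.5, 4.995, 3.185, 7.41 and 4.94 CPM in liver controls (2.26 ± 0.30, edgeR adjusted p = 5.8e-07).

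GPX7, GPX8 and MSRB3 were higher in heart. GPX7, which passes oxidising equivalents to protein folding, was at 1.87 to 5.49 CPM in heart controls, with a median of 2.65, and at 0, 0, 0, 0.223 and 0.111 CPM in liver controls (-4.48 ± 0.69, edgeR adjusted p = 4.9e-06, a fitted value that depends on the prior count). GPX8, of the same function, gave -3.88 ± 0.71. MSRB3, which repairs oxidised methionine, was at 23.8 to 37.8 CPM in heart controls (median 30.8) and at 1.105, 2.68, 5.29, 2.86 and 7.22 CPM in liver controls (-2.96 ± 0.33, edgeR adjusted p = 2.8e-08). NQO2, a quinone reductase, was lower in liver by its fold change (-1.87 ± 0.47), although its ranges overlapped. The NQO2 model lies wholly within that of DUSP22, which averaged 36.2 CPM in heart and 16.9 in liver. Reads of that overlap cannot be told apart without the strand of counting. GPX3, the secreted selenium peroxidase, showed no difference that passed (-0.58 ± 0.55), with 825 to 2272 CPM in heart controls and 291 to 1607 in liver controls. NOX1, an oxidase known from mammalian gut, was higher in liver by its fit (4.10 ± 1.03), with nearly all of its liver counts in controls 1 and 5. The 9 other members tested, SECISBP2L, SEPHS1, TXNDC5, TXNDC9, TXNDC16, GLRX3, MSRB1, NCF4 and OSGIN2, did not pass, with fold changes of -0.39 to 1.16. GLRX, a glutaredoxin, was too low to be tested, at 1.08 CPM or less in every control.

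In liver, the question was which of these genes differed after the week 12 start of Sal. Of the 31 members tested, 6 passed (19.4%), beside 14.3% of all genes (7.36% higher and 6.89% lower): OSGIN1 and SECISBP2L were higher in Sal-exposed birds, and TXN, SELENOT, TXNDC5 and SELENOO were lower. The share was near that of all genes, and the median member did not move (-0.02, against 0.03 for all genes). OSGIN1 and TXNDC5 also reached an absolute log2 fold change of 1, beside 8.32% of all genes. At an unadjusted p under 0.05 there were 12 members (30.1% of all genes). GPX7, GPX8 and GLRX were too low to be tested, and in bulk tissue less RNA per cell and fewer cells of a type cannot be told apart.

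**Figure D2:**
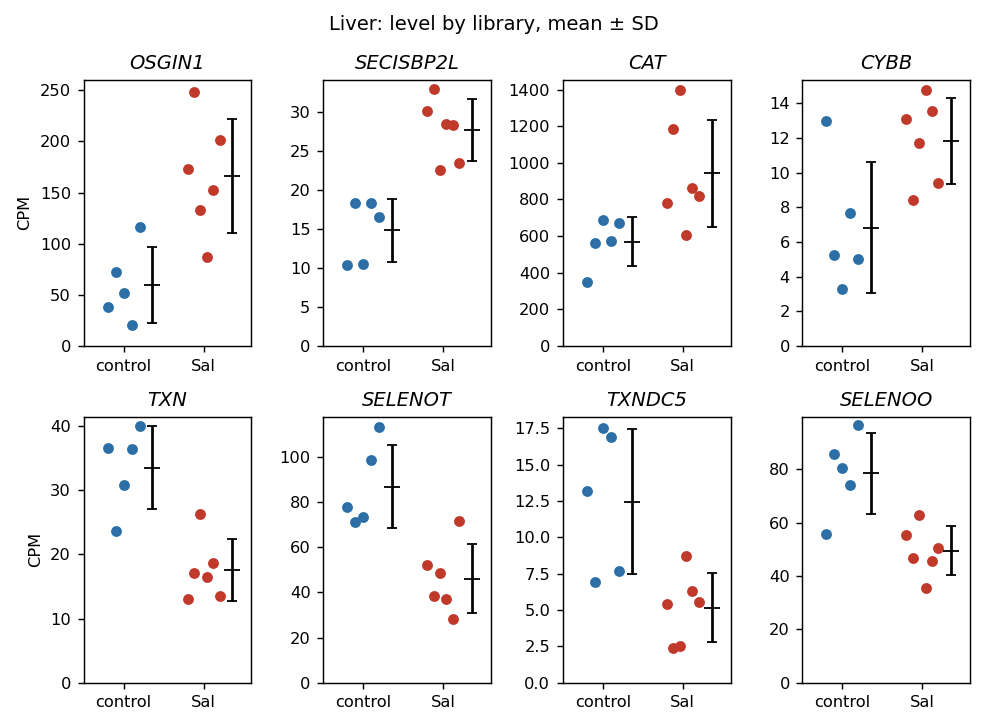
Level in CPM (y axis, from 0) of 8 members in the 5 control and 6 Sal-exposed liver libraries, with the mean ± SD at the right of each group. The 6 members that passed are OSGIN1, SECISBP2L, TXN, SELENOT, TXNDC5 and SELENOO, and only for SECISBP2L do the groups not overlap, whereas CAT and CYBB did not pass.

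OSGIN1 (chromosome 13, 12213332 to 12218308) had the largest called increase. It stood at 37.85, 72.5, 51.3, 20.1 and 116 CPM in liver controls 1, 2, 4, 5 and 6, and ranged from 87.0 to 249 CPM in Sal-exposed livers, with a median of 163. Control 6 alone reached into the Sal-exposed range, and the means were 59.6 ± 37.1 (SD, n = 5) and 166 ± 56.01 CPM (SD, n = 6). The difference was 1.48 ± 0.38 (edgeR adjusted p = 0.0210), which rose to 0.0528 without Sal-exposed bird 2. The other members of the NRF2 group did not pass: NFE2L2 averaged 114 ± 25.2 and 113 ± 18.9 CPM in control and Sal-exposed livers (-0.02 ± 0.19), NQO2 2.85 and 2.84 CPM, and OSGIN2, a relative of OSGIN1, gave -0.60 ± 0.41.

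SECISBP2L (chromosome 12, 9630851 to 9643919), a relative of the protein that binds the selenocysteine insertion element, was the only member whose ranges did not overlap, beside 10.1% of all genes (6.6% with the Sal-exposed livers above). Liver controls stood at 10.4, 18.4, 10.6, 18.3 and 16.5 CPM, and Sal-exposed livers at 22.5 to 33.0 CPM, with a median of 28.4. The difference was 0.90 ± 0.21 (edgeR adjusted p = 0.0136) and passed without any one library. SEPHS1, a selenophosphate synthetase homologue, averaged 24.8 ± 10.9 in control and 19.2 ± 1.36 CPM in Sal-exposed livers and did not pass (-0.36 ± 0.24).

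Of the 5 selenoproteins outside the enzyme families, SELENOT and SELENOO were lower and none was higher, beside 6.89% of all genes lower and 7.36% higher. The selenoproteins among the members of the enzyme families, GPX3 (0.55), MSRB1 (0.12) and TXNRD2 (0.05), did not pass. SELENOT (chromosome 11, 23356244 to 23361155) was at 77.6, 70.98, 73.3, 98.7 and 113 CPM in controls and at 28.2 to 71.55 CPM in Sal-exposed livers, with a median of 43.5. Only Sal-exposed bird 6 (71.55) reached the lowest control. The difference was -0.91 ± 0.23 (edgeR adjusted p = 0.0181, and 0.0506 without control 5). The SELENOT model lies wholly within that of ERICH6, which averaged 3.57 CPM in liver. SELENOO was at 55.65, 85.5, 80.6, 74.0 and 96.6 CPM in controls and at 35.6 to 63.0 CPM in Sal-exposed livers, with a median of 48.7 (-0.66 ± 0.19, edgeR adjusted p = 0.0301). Control 1 alone lay among the Sal-exposed livers, and SELENOO did not pass without Sal-exposed bird 2, 4 or 5 or control 5 or 6 (adjusted p up to 0.0668). SELENOI (-0.55 ± 0.25), SELENOF (-0.38 ± 0.19) and SELENOK (-0.34 ± 0.44) did not pass.

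TXN (chromosome Z, 59598108 to 59600945) was at 36.5, 23.6, 30.8, 36.4 and 40.01 CPM in controls and at 13.0 to 26.3 CPM in Sal-exposed livers, with a median of 16.8. Sal-exposed bird 3 (26.3) was the single library to reach the controls. The difference was -0.93 ± 0.21 (edgeR adjusted p = 0.0119) and passed without any one library. Of the mitochondrial pair, TXN2 averaged 55.1 ± 19.1 and 35.99 ± 7.89 CPM in control and Sal-exposed livers (-0.61 ± 0.23, adjusted p = 0.0850) and TXNRD2 10.6 and 11.0 CPM (0.05 ± 0.25). TXNDC5, a protein disulfide isomerase of the endoplasmic reticulum, was at 13.2, 6.93, 17.5, 16.9 and 7.71 CPM in controls and at 2.41 to 8.69 CPM in Sal-exposed livers, with a median of 5.48. Controls 2 and 6 fell within the Sal-exposed range (-1.26 ± 0.36, edgeR adjusted p = 0.0301), the call was lost without Sal-exposed bird 1, 2 or 3 or control 4 or 5 (adjusted p up to 0.0836), and the gene shares 10650 of its 27775 bases with BMP6.

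CAT and CYBB did not pass in liver. CAT averaged 569 ± 134 CPM in controls, between 350 and 687, and 942 ± 294 CPM in Sal-exposed livers, between 604 and 1401 (0.73 ± 0.25, edgeR adjusted p = 0.0653). DESeq2 called it (adjusted p = 0.0219), and so did edgeR without Sal-exposed bird 4 (0.0478). CYBB averaged 6.82 ± 3.77 and 11.8 ± 2.48 CPM (0.78 ± 0.31, edgeR adjusted p = 0.104), where control 1 alone, at 13.0, lay among the Sal-exposed livers and the call passed without it (0.0183). Of the 9 leukocyte genes tested, CSF1R, MPEG1 and ITGB2 were higher in Sal-exposed livers. The others did not pass, with log2 fold changes of -0.63 (CD3E) to 0.55 (PTPRC). The sum over the list was 332.5 to 896 CPM in controls and 573 to 1036 CPM in Sal-exposed livers. Its largest part was CD74, at 160 to 628 CPM in controls and 267 to 572 CPM in Sal-exposed livers (0.04). The part of these genes in the CYBB values was not tested. Of the 3 endothelial genes tested, PECAM1 was higher (1.12, edgeR adjusted p = 0.0223). The sum over the endothelial list was 13.3 to 26.1 CPM in controls and 28.5 to 58 CPM in Sal-exposed livers, and its part in the liver values was not tested. In control and Sal-exposed livers, HMOX1 (225 ± 75.3 and 238 ± 73.2 CPM), SOD2 (122 ± 17.2 and 116 ± 15.5), GCLC (21.0 ± 4.22 and 24.2 ± 4.34) and GSR (42.1 ± 15.9 and 51.5 ± 14.7) gave 0.08, -0.07, 0.20 and 0.29 as log2 fold changes, in that order. GPX3 ranged from 298 to 1659 CPM in controls and from 274 to 3342 CPM in Sal-exposed livers, by far the widest spread of the 10 genes named whatever their values (0.55 ± 0.57), and SOD3 from 7.48 to 10.2 and from 6.94 to 31.3 CPM (0.59 ± 0.37). The SOD3 difference fell to 0.15 without Sal-exposed bird 4. Of the other members, MSRB3 gave 0.94 ± 0.39, AIFM2 -0.83 ± 0.32, NOX1 -2.06 ± 1.18 and GLRX3 -0.32 ± 0.25, and TXNDC9, TXNDC16, MSRB1 and NCF4 -0.03 to 0.32, none of which passed.

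Gut markers moved with the liver comparison. All 8 enterocyte genes of the list were in the table, CPO was at 0 in controls 2, 4 and 6, and their sum was 2164 to 19360 CPM in liver controls and 403 to 669 CPM in Sal-exposed livers, with 6 of the 8 lower in Sal-exposed birds by the test. APOA4, which made up most of the sum in 4 of the controls, was above the Sal-exposed range in all 5, whereas MEP1A stood at 1231 and 216 CPM in controls 1 and 5 and at no more than 5.04 in the other 3. Without controls 1 and 5, a choice made after seeing the data, 3 members passed instead of 6, beside 6.76% of all genes: SECISBP2L (0.84), SELENOO (-0.84) and CYBB (1.36), the last of which had not passed before. TXN (-0.86), SELENOT (-0.92), OSGIN1 (1.03) and TXNDC5 (-1.07) kept their direction with edgeR adjusted p values of 0.0582 to 0.131. Their part in the result was not tested further. With library size in place of TMM, OSGIN1, SECISBP2L and SELENOT alone passed, beside 8.01% of all genes. Without the controls with few genes, 2 and 4, 8 members passed, 2 higher and 6 lower, beside 23.9% of all genes.

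In heart, no member passed. Of the 32 members tested, 0 passed in edgeR's quasi-likelihood test, beside 1.01% of all genes. At an unadjusted p under 0.05 there were 3 members (GLRX3, SELENOT and CAT), or 9.4%, beside 17.3% of all genes. DESeq2 also called 0 (4.42% of all genes), limma-voom with quality weights called those 3 (10.1%), and DESeq2 with surrogate variables called 5 (12.8%). No member had ranges that did not overlap, beside 2.68% of all genes. The median over the members was 0.16, against 0.01 for all genes, and -0.02 without Sal-exposed bird 1.

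**Figure D3:**
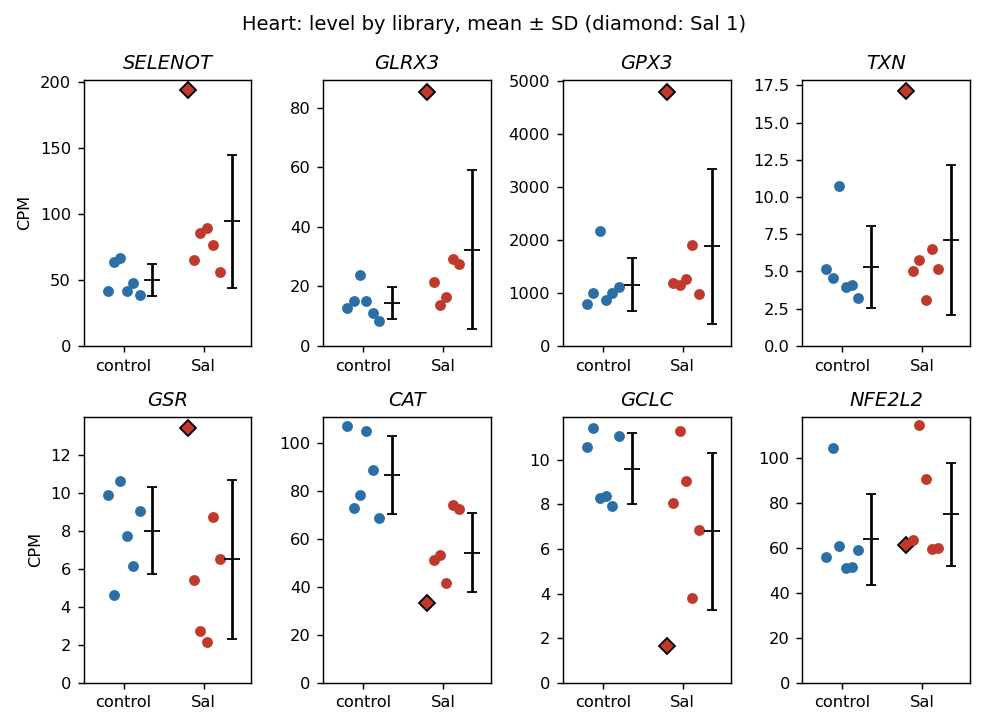
Level in CPM (y axis, from 0) of 8 members in the 6 control and 6 Sal-exposed heart libraries, with the mean ± SD at the right of each group. The black-edged diamond is Sal-exposed bird 1, the highest library for SELENOT, GLRX3, GPX3, TXN and GSR and the lowest for CAT and GCLC, and in all 8 panels the groups overlap.

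SELENOT ranged from 38.7 to 66.7 CPM in heart controls, with a median of 44.6, and from 56.3 to 194 CPM in Sal-exposed hearts, with a median of 81.1. Sal-exposed bird 1 lay far above the others, which reached 89.7 at most (0.92 ± 0.29, edgeR adjusted p = 0.162, and 0.58 without that bird). GLRX3, a cytosolic glutaredoxin that handles iron-sulfur clusters, ranged from 8.26 to 23.7 CPM in controls (median 14) and from 13.6 to 85.4 in Sal-exposed hearts (median 24.4). Its difference of 1.16 ± 0.41 (edgeR adjusted p = 0.195) fell to 0.59 without bird 1. CAT was at 68.9 to 107 CPM in controls (median 83.5) and at 33.3 to 74.1 in Sal-exposed hearts (median 52.3), where only birds 5 and 6 reached the control range (-0.67 ± 0.22, edgeR adjusted p = 0.177, and -0.56 without bird 1). These 3 genes were chosen for their unadjusted p, after their values were seen, and each overlapped between the groups.

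None of the glutathione peroxidase members passed in heart. GPX3 (chromosome 15, 13423928 to 13425131) was at 800 to 2171 CPM in heart controls (median 1006) and at 988 to 4809 in Sal-exposed hearts (median 1222), highest in Sal-exposed bird 1. Its difference of 0.70 ± 0.44 fell to 0.17 without bird 1 and rose to at most 0.98 without another library. GPX7 (0.65 ± 0.49) and GPX8 (0.80 ± 0.47) had their highest value in that bird as well. TXN ranged from 3.23 to 10.7 CPM in controls and from 3.08 to 17.1 in Sal-exposed hearts (0.42 ± 0.39, and -0.04 without bird 1), and TXN2 averaged 51.8 ± 15.7 and 86.6 ± 61.0 CPM (0.74 ± 0.40). SOD2 was at 289 to 413 CPM in controls and at 254 to 635 in Sal-exposed hearts (0.16 ± 0.26). SOD3 was at 10.6 to 23.7 and at 18.4 to 35.5 CPM (0.49 ± 0.24, edgeR adjusted p = 0.303).

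The NRF2 system and glutathione genes of the heart did not pass either. NFE2L2 was at 51.2 to 105 CPM in controls and at 59.6 to 115 in Sal-exposed hearts (0.23 ± 0.24), with its 3 highest values in Sal-exposed birds 3 and 4 and control 2, the libraries in which mitochondrial genes took over 80% of the counts. OSGIN1, which differed in liver, averaged 9.69 ± 4.44 and 9.66 ± 2.83 CPM in control and Sal-exposed hearts (0.00 ± 0.29). GCLC was at 7.92 to 11.4 CPM and at 1.66 to 11.3 CPM (-0.50 ± 0.34), and GSR at 4.62 to 10.6 and 2.16 to 13.4 CPM (-0.30 ± 0.38). The GSR difference was -0.63 without Sal-exposed bird 1, and it passed with DESeq2 and surrogate variables (-0.61, adjusted p = 0.00459). GCLC was -0.30 without that bird. HMOX1 (0.32 ± 0.28, and 0.0415 without that bird), CYBB (-0.07 ± 0.26) and AIFM2 (0.34 ± 0.33) were below 15 CPM in every heart library, and NOX1 and GLRX were too low to be tested. The 15 members not named so far in heart gave fold changes of -0.55 ± 0.42 (SECISBP2L) to 0.73 ± 0.38 (SELENOF), at edgeR adjusted p values of 0.3275 to 0.980.

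The direction in heart went with the length of the gene. Across the 10265 genes tested, Spearman's rho between the genomic span and the log2 fold change was -0.34, and across the 32 members -0.56, genes not being independent replicates. Members above 0 had a median span of 7206 bases and those below 0 of 15981. The same relation within single libraries, as the deviation of each gene from its mean in heart, ran from -0.40 in Sal-exposed birds 1 and 5 to 0.32 in control 2, and was above 0.20 in 5 of the 6 controls and in Sal-exposed birds 3 and 4. In liver it was -0.26 to -0.03 in controls and -0.09 to 0.34 in Sal-exposed birds, with a rho of 0.22 across all genes and 0.11 across the 31 members. Genes called higher in Sal-exposed livers had a median span of 21564.5 bases and those called lower of 7804.5, against 10685 for all tested. The part of gene length in the values of single members and companions was not tested.

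The effect of Sal differed between the tissues for some members, at a share near that of all genes. In a fit over both tissues, 8 of 33 members passed for the effect in liver minus the effect in heart (24.2%), beside 18.5% of all genes (8.45% with the lower effect in liver): OSGIN1, SECISBP2L, CAT and MSRB3 had the higher effect in liver, and SELENOT, GLRX3, TXN and TXNDC5 the lower. All 8 differences exceeded 1 on the log2 scale, beside 16.5% of all genes, and the median over the members was -0.24, against 0.05 for all genes.

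**Figure D4:**
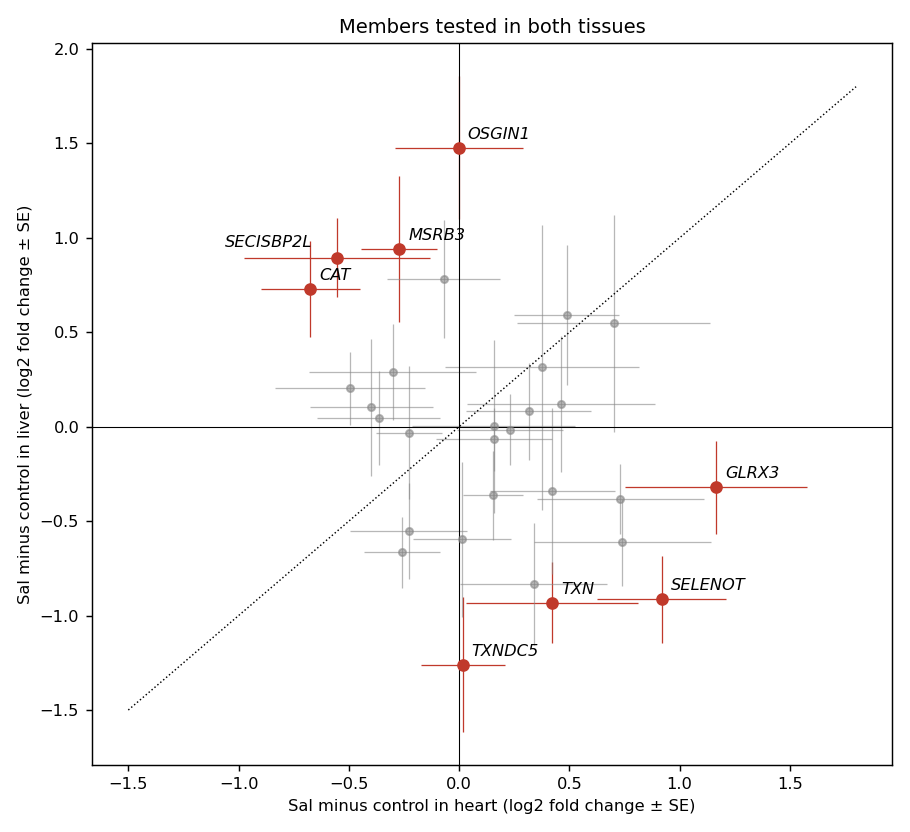
Sal-exposed minus control in heart (x axis) and in liver (y axis), as log2 fold change ± SE, for the members tested in both tissues. The dotted line marks equal effects, and the 8 members whose effects differed at an adjusted p of at most 0.05 are named, 4 above the line (OSGIN1, SECISBP2L, CAT, MSRB3) and 4 below it (SELENOT, GLRX3, TXN, TXNDC5).

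SELENOT had the largest of these differences, -1.84 ± 0.39 (edgeR adjusted p = 0.00338). Its levels were described above: a mean of 49.96 ± 12.1 CPM in control and 94.5 ± 50.4 in Sal-exposed hearts, and of 86.8 ± 18.5 and 46.0 ± 15.2 CPM in control and Sal-exposed livers. In every alternative fit run, among them those leaving out each library in turn, SELENOT passed with an adjusted p of at most 0.0384. CAT went in opposite directions as well, with 86.8 ± 16.4 and 54.4 ± 16.4 CPM in control and Sal-exposed hearts and 569 ± 134 and 942 ± 294 CPM in livers, although neither tissue passed by itself. The difference was 1.39 ± 0.37 (edgeR adjusted p = 0.0132) and passed without any one library, at an adjusted p of 0.0260 or less. It did not pass with the replicate numbers as a block (1.28, edgeR adjusted p = 0.0718). That block tied Sal-exposed and control libraries of the same number within a tissue. It did not tie heart and liver libraries of the same bird.

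The other 6 differences were each lost without some single library. OSGIN1 (1.47 ± 0.50), SECISBP2L (1.45 ± 0.50), TXN (-1.36 ± 0.47) and TXNDC5 (-1.29 ± 0.41) differed in liver, and in heart none of them passed. MSRB3 averaged 28.9 ± 4.998 and 23.9 ± 4.11 CPM in control and Sal-exposed hearts and 3.93 ± 2.43 and 7.57 ± 2.12 CPM in livers (1.20 ± 0.41), and GLRX3 14.4 ± 5.28 and 32.2 ± 26.7 CPM in hearts and 16.6 ± 5.76 and 13.3 ± 3.63 CPM in livers (-1.498 ± 0.51). Their edgeR adjusted p values lay between 0.0334 and 0.0474. Without heart Sal-exposed bird 1 the difference was -0.78 for GLRX3 and -0.75 for TXN (edgeR adjusted p = 0.167 and 0.195). The count was 5 without heart Sal-exposed bird 1, beside 1735 of all 11156 genes tested. It was 2 without heart control 1, heart control 4 or liver Sal-exposed bird 2. Beside these stood 1598 of 11146, 1568 of 11147 and 1583 of 11143 genes, in that order. The count of members was 4 without liver controls 1 and 5, beside 16.5% of all genes, namely SELENOT, CAT, GLRX3 and CYBB, the last of which had not passed before.

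The companions, named by position only, were mostly lower in Sal-exposed livers where they passed. Of the 30 tested in liver 10 passed in edgeR, all lower, beside 6.89% of all genes that were lower and 7.36% higher. Lower in Sal-exposed livers were NQO1, an NRF2 target that reduces quinones, at 161 ± 29.5 and 69.7 ± 12.6 CPM in control and Sal-exposed livers (-1.21 ± 0.19, edgeR adjusted p = 0.00153), and PRDX4, the peroxiredoxin of the endoplasmic reticulum (-0.84 ± 0.19). They were joined by GLRX5, which serves mitochondrial iron-sulfur clusters (-0.89 ± 0.22), SELENOS (-0.67 ± 0.17), GPX4, the selenium peroxidase of membrane lipids (-0.87 ± 0.26), SOD1 (-0.68 ± 0.22), TXNL1, TXNL4A and AIFM3. IREB2, which senses iron and binds the messages of ferritin and transferrin receptor, was lower too (-0.84 ± 0.23, edgeR adjusted p = 0.0247), with 30.5, 47.6, 56.1, 59.2 and 89.4 CPM in controls and 25.8 to 36.95 CPM in Sal-exposed livers. Without controls 1 and 5, 4 companions passed, all lower, beside 6.76% of all genes, and with library size alone 2, beside 8.01%. DESeq2 called 11, all lower (20.5% of all genes). With surrogate variables it called 4 higher and 12 lower (41.4%), and limma-voom called 1 higher and 9 lower (24.5%). Without control 1 there were 1 higher and 8 lower, beside 1375 of 10407 genes. Without control 6 there were 1 higher and 6 lower, beside 1431 of 10441 genes. GCLM, GSS, PRDX1, PRDX3, PRDX6 and SELENOP did not pass.

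In heart 0 of 30 companions passed in edgeR, beside 1.01% of all genes, and 6 had an unadjusted p under 0.05, beside 17.3%. DESeq2 called 1 (4.42% of all genes), limma-voom 3 (10.1%) and DESeq2 with surrogate variables 4 (12.8%). HMOX2, the constitutive haem oxygenase, came nearest and was the only 1 of the 30 companions without overlap, beside 2.68% of all genes. It stood at 15.2 to 18.3 CPM in controls and 21.1 to 54.6 CPM in Sal-exposed hearts (0.97 ± 0.22, edgeR adjusted p = 0.0533). This gene was chosen after its values were seen.

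Genes of the same pathways outside the set were read from 8 lists of iron handling, haem synthesis, selenocysteine incorporation, glutathione transferases, NADPH supply, NRF2 partners, cysteine supply and ferroptosis lipids. Of their 81 genes 54 were in the table. In liver 6 of 53 tested passed, 5 higher and 1 lower, beside 14.3% of all genes. SLC40A1, the iron exporter ferroportin, averaged 14.8 ± 8.62 CPM in control and 49.9 ± 11.3 CPM in Sal-exposed livers (1.75 ± 0.33, edgeR adjusted p = 0.00486), and was the only 1 of 13 iron handling genes to pass. NNT, which makes mitochondrial NADPH (1.37 ± 0.25), CTH, which makes cysteine (1.02 ± 0.22), ACSL4, which loads membranes with oxidisable fatty acids (1.27 ± 0.27), and ALOX5, a lipoxygenase of leukocytes (1.99 ± 0.55), were higher, and MGST2, a microsomal glutathione transferase, was lower (-0.61 ± 0.19). None of the 7 haem synthesis, 5 selenocysteine and 9 NRF2 partner genes passed in liver. In heart 0 of 51 passed, beside 1.01% of all genes, with 5 at an unadjusted p under 0.05, beside 17.3%. DESeq2 called 3 (4.42% of all genes), limma-voom 3 (10.1%) and DESeq2 with surrogate variables 8 (12.8%).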

How the data were processed

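RNA was sequenced from mRNA libraries of turkey heart and liver. Per the paper's methods, the authors trimmed reads with fastp, aligned them with STAR to Turkey_5.1 and quantified genes with RSEM. The deposited counts per Ensembl gene were taken as RSEM expected counts and are whole numbers. Versions and strand settings: not given in the sources used here. Of 36 columns of library values, 12 matched no sample and were not used. The deposited DESeq2 tables of the authors also hold log2 fold changes, Wald statistics (a score), p-values and mean counts, which were not used, and gave gene names and positions. Of 11587 genes, 4985 were named by these tables and 3477 by the only RefSeq gene sharing at least 50% of both spans. Where both gave a name, 3912 of 3933 were the same.

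Genes were tested with edgeR 4.0.16 in R 4.3.3 (TMM, filterByExpr, robust quasi-likelihood F test, prior count 2, Benjamini-Hochberg over all genes tested), within each tissue and, for the tissue by treatment term and for liver against heart controls, in 1 fit over 23 libraries. The SE was derived from the F statistic, and the steps were tested on simulated data. Of simulated absolute log2 fold changes of 1, 31% were recovered in heart and 15.8% in liver. Of those of 2, 91.8% and 60% were recovered. Genes left unchanged made up 6.2% and 4% of the calls. The simulation changed only a small part of the genes and drew each gene independently, without the differences between libraries described above. These shares therefore need not hold for the data. Alternatives were DESeq2 1.42.0, alone and with sva 3.50.0, limma 3.58.1 voom, other normalization and filters, a replicate block, inclusion of liver control 3 and omission of each library in turn. The replicate block was the replicate number within a tissue and not the bird. Omitting the heart libraries with over 80% mitochondrial counts, the liver controls with a count in fewer than 10000 genes, or those with SI above 50 CPM was chosen after seeing the data.

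Named with values were the members past the adjusted p, up to 10 per comparison in order of p, and 10 members whatever their values (NFE2L2, GPX3, CAT, SOD2, SOD3, TXN, GCLC, GSR, HMOX1 and CYBB). The members and lists were chosen with earlier results of these data known. Within a tissue, libraries are taken as separate birds, and p-values cover the spread between them. No fit had a term for the pen, so that the p-values take no account of birds that shared a pen. In the fit over both tissues all libraries were treated as independent. By the paper's sampling the birds gave both a heart and a liver library, which its p-values take no account of. This holds for liver against heart controls and for the tissue by treatment term. Protein and promoter sequences were not used here.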

Additional observations from a re-analysis of the deposited data

Results flagged for a closer look

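Of 76 groups of libraries tested over the 19 genes named by the rule, 14 held a library whose gap to the next, relative to the range of the group, was wide by Dixon's criterion. Chance gives about 1 in 20 for independent groups of normally distributed values. CPM was not transformed and the groups share the same libraries, so that this rate cannot be set against the 14. Among them 7 were Sal-exposed heart bird 1, which had the highest level of GLRX3 (85.4 CPM, the others at most 29.3), GPX3 (4809, others at most 1910), GPX7 (14.1, others at most 4.37), HMOX1 (14.2, others at most 7.52), SELENOT (194, others at most 89.7), SOD3 (35.5, others at most 23.1) and TXN (17.1, others at most 6.50). Heart control 3 was the highest control for GPX3 (2171 CPM), GPX7 (5.25) and TXN (10.7). Heart control 2 was the highest for NFE2L2 (104.7 CPM, others at most 60.7) and the lowest for SELENOI (1.67, others at least 2.64). The remaining ones were CYBB in Sal-exposed heart bird 2 (1.82 CPM, others at most 1.19) and GLRX3 in liver control 6 (26.7, others at most 16.4).

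For 8 members the effect of Sal in liver minus that in heart passed the test of the difference itself (edgeR tissue by treatment term). CAT (1.39), MSRB3 (1.20), OSGIN1 (1.47) and SECISBP2L (1.45) were above 0, and TXN (-1.36), SELENOT (-1.84), TXNDC5 (-1.29) and GLRX3 (-1.498) below 0. That was 24.2% of the members tested, near the 18.5% of all genes. All but SELENOT and CAT were each lost without some single library.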

How the results depend on the processing

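With 5 or 6 libraries a group, differences near the threshold depended on single libraries. In heart, 0 members passed without each library in turn, beside 0.513% to 1.54% of all genes. Limma-voom called 3 (10.1% of all genes) and DESeq2 with surrogate variables 5 (12.8%). In liver, where 6 passed, the count was 3 to 7 without each library (7.27% to 19.9% of all genes), lowest without Sal-exposed bird 2 or control 5, and 3 with library size alone (8.01% of all genes), 3 with control 3 included (3.22%), 3 without controls 1 and 5 (6.76%), and 14 with DESeq2 and surrogate variables (41.4%). For the difference between tissues, where 8 passed, the count of members was 2 to 9 without each library (14.1% to 22.9%), 4 with library size alone (12.6%), 4 with control 3 included (10.5%), 4 without liver controls 1 and 5 (16.5%), and 2 with the replicate block (9.91%), where CAT was lost (1.28, edgeR adjusted p = 0.0718). For liver against heart in controls, 20 passed, and 18 to 24 without each library (54.7% to 60.8% of all genes). Between Sal-exposed and control libraries of the same number in a tissue, correlations of their deviations from the group mean ran from -0.508 to 0.181. Between heart and liver libraries of the same number they ran from -0.392 to 0.194. These cannot tell whether such libraries share a bird, because other differences between libraries enter them too. With the replicate numbers as a block within each tissue, 0 members passed in heart (0.292% of all genes) and 5 in liver (6.97%). The block did not tie heart to liver libraries. The contrast of the tissues could not be fitted with that block. Directions turned only for genes that did not pass. In heart these were GPX3 (-0.0069), TXN (-0.13), SOD2 (-0.22) and CYBB (0.17) with surrogate variables, HMOX1 (-0.11), NFE2L2 (-0.18) and SOD2 (-0.30) with library size alone, and SOD2 (-0.12) and CYBB (0.0453) with limma-voom. In liver they were GPX3 with the block (-0.15) and voom (-0.11), SOD2 with library size (0.0705), voom (0.0098), control 3 (0.0282) and without controls 2 and 4 (0.0263), HMOX1 with surrogate variables (-0.0423), without controls 2 and 4 (-0.0533) and without 1 and 5 (-0.0616), and NFE2L2 with library size (0.12), the block (0.0323), surrogate variables (0.0684), voom (0.07) and without controls 2 and 4 (0.16). Without each library in turn, heart TXN ranged from -0.0382 to 0.75, SOD2 from -0.0693 to 0.24 and CYBB from -0.22 to 0.0288, and liver GPX3 from -0.064 to 0.95, SOD2 from -0.13 to 0.0237, HMOX1 from -0.0733 to 0.27 and NFE2L2 from -0.0873 to 0.12. The causes were not tested.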

Other observations

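NOX1, GPX2, DUOX2 and AIFM3 stood higher in liver controls 1 and 5 than in the other livers. NOX1 stood at 6.98 and 5.40 CPM in liver controls 1 and 5 and at 1.21 or less in the other 9 livers. GPX2, the glutathione peroxidase of the gut, stood at 14.3 and 3.69 CPM in the same controls and at 0.543 or less elsewhere, and DUOX2, a hydrogen peroxide source of mucosa, at 14.5 and 5.26 CPM and at 0.360 or less elsewhere. AIFM3, counted above among the companions lower in Sal-exposed livers, was at 21.2 and 3.55 CPM there, at 2.88 in control 4 and at 0.526 or less elsewhere. These are the 2 libraries with raised SI and MEP1A.

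Sal-exposed livers 3 and 4 held the highest Sal-exposed levels of the secreted enzymes GPX3 (1805 and 3342 CPM, the other 4 at 274 to 730) and SOD3 (18.0 and 31.3 CPM, the other 4 at 6.94 to 9.86) and of HMOX1 (293 and 360 CPM, the other 4 at 166 to 207).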
